A study of Mus musculus and Rattus norvegicus with 36 samples.

Results

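Toxic Se intake was studied in the liver of rats given 5 μg Se/g diet, with the liver of rats given the Se-adequate diet of 0.24 μg Se/g as the control. The comparison takes the 6 rat arrays whose labels give these diets, 3 toxic and 3 control rats out of 36 arrays in the series, and every probe set of the rat array apart from the array controls. All rats were male Holtzman weanlings that were housed singly, had free access to food and ate a torula-yeast basal diet low in Se, with added vitamin E and methionine, to which sodium selenite was added for 28 days. Each array held the liver RNA of 1 rat, and livers were perfused with cold potassium chloride in place before they were frozen. Intake was not matched between the diets, as no pair-fed rats were among the arrays, so the amount eaten and the Se in the diet cannot be told apart here. The labels describe each array as the liver of a rat, so the error below comes from the spread among rats of the same diet. That spread is pooled over all diets in the fit, so a wide spread in another diet can raise it.

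Se is an essential trace element that animals build into selenoproteins as selenocysteine, an amino acid at the active site of glutathione peroxidases and thioredoxin reductases. Selenite is reduced with glutathione and thioredoxin to selenide, which is used for selenoprotein synthesis or is methylated or bound to a sugar for excretion. At high intake the reactions of selenite and selenide with thiols and oxygen give superoxide and use up glutathione, and the liver is a known target of Se poisoning. Genes that a liver can turn on under such stress include the antioxidant genes of the transcription factor Nrf2, the genes of the amino acid response and the matrix genes of stellate cells, the vitamin A-storing cells of the sinusoid that can become myofibroblasts.

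The values are log2 expression levels of 31042 probe sets, 20826 of them with 1 gene symbol, 436 with several and 9780 without one. In limma, with the spread taken over 12 arrays that also hold the Se-deficient diet and that of 2 μg Se/g, 875 probe sets (2.82%) passed an adjusted p of 0.05, 686 higher (2.21%) and 189 lower (0.609%) at 5 than at 0.24 μg Se/g. With 1 probe set for each of 14217 genes, 581 genes (4.09%) were called, 465 higher (3.27%) and 116 lower (0.816%). Changes below are on the log2 scale with ± the SE of the fit, and their median over all genes was −0.0044. The 3 rats of one diet lay apart from the 3 of the other in 3817 genes (26.8%), 2151 higher (15.1%) and 1666 lower (11.7%), and 2434 genes (17.1%) had an unadjusted p under 0.05. The count of probe sets was 351, 389 and 1065 without toxic replicates 1, 2 and 3, and 435, 467 and 461 without replicates 1, 2 and 3 at 0.24 μg Se/g. The same 6 fits called 237, 258, 694, 297, 312 and 313 genes in that order, and 205 of the 581 genes were called in all 6. Further counts for these 6 fits follow this order, toxic replicates first. The array of replicate 3 at 5 μg Se/g was the mildest of its group, with a median change of 0.732 over the genes called higher and −0.735 over those called lower. These medians were 0.979 and −1.035 in replicate 1 and 1.044 and −0.920 in replicate 2. Pearson's r between 2 rats of one diet, over all probe sets, was 0.989 to 0.995 in the controls and 0.992 to 0.9945 in toxic Se. The 3′ actin control exceeded the 5′ control by 1.49 to 1.54 (log2) at 0.24 and by 1.38 to 1.72 at 5 μg Se/g, ranges that overlapped. In whole liver a higher or lower level can mean more or fewer cells of a type or more or less RNA per cell, and these cannot be told apart.

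**Figure D1:**
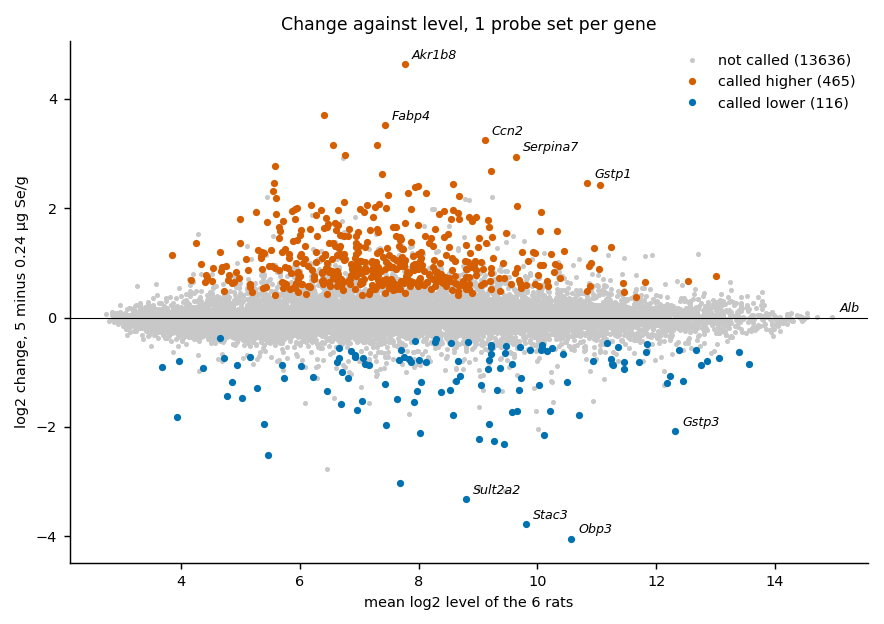
Log2 change at 5 against 0.24 μg Se/g (vertical axis) by the mean log2 level of the 6 rats (horizontal axis) for 14217 genes, 1 probe set each. Orange points are the 465 genes called higher, blue points the 116 called lower and grey points the rest. Albumin (Alb), at the right edge, lay at 0.01.

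The largest rise belonged to Akr1b8, an aldo-keto reductase that reduces aldehydes. Its log2 levels were 5.54, 5.56 and 5.26 at 0.24 μg Se/g and 9.80, 10.25 and 10.18 at 5 μg Se/g, a change of 4.63 ± 0.25 (adjusted p = 1.6e-05) or 24.7-fold. All 3 rats at 5 μg Se/g lay far above the controls. Next came Tsx, a testis-specific transcript with no known task in liver, at 4.45, 4.90 and 4.31 at 0.24 μg Se/g and 8.59, 8.61 and 7.58 at 5 μg Se/g, a change of 3.705 ± 0.29 (adjusted p = 0.00020). Fabp4, a fatty acid-binding protein of fat cells, macrophages and capillary endothelium, stood at 5.85, 6.02 and 5.16 at 0.24 μg Se/g and 9.34, 9.81 and 8.41 at 5 μg Se/g, a change of 3.51 ± 0.48 (adjusted p = 0.0032). Ccn2, a matricellular growth factor made in fibrosis, had 7.36, 7.52 and 7.598 at 0.24 μg Se/g and 11.26, 11.55 and 9.40 at 5 μg Se/g, a change of 3.24 ± 0.45 (adjusted p = 0.0034). In Tsx and Ccn2 replicate 3 at 5 μg Se/g was the lowest of its diet. The largest rises and falls were picked among called genes whose groups do not overlap, so their lack of overlap follows from that choice. Serpina7, the thyroxine-binding globulin of plasma, rose from 7.86, 9.01 and 7.64 to 10.87, 11.56 and 10.89, a change of 2.94 ± 0.35 (adjusted p = 0.0018). Esm1, a proteoglycan that sprouting endothelium secretes, rose from 4.02, 4.21 and 4.37 to 6.48, 7.597 and 6.81, a change of 2.76 ± 0.25 (adjusted p = 0.00037). The other named rises, ordered by size, were Apln, Nr1d1, Pcdh17, Tagln, Krt19, Slc7a11, Gstp1, Abcc3, Mt2A, Cav1, Tpm2, Actg2, Lox and Asns, and their changes ran from 3.16 to 2.27. Pcdh17 is an adhesion protein of the protocadherin family and Cav1 the coat protein of caveolae. Of the 20 largest rises, 3 were not called in every fit with an array left out. Nr1d1 was lost without replicate 1 at 5 μg Se/g and without each control in turn (adjusted p = 0.055 to 0.085). Actg2 was called only in the fit without replicate 3 at 5 μg Se/g, with adjusted p of 0.061 to 0.096 in the other 5, and Mt2A in none of the 6 (adjusted p = 0.065 to 0.12). Actg2 was also lost with the 2 diets alone in the fit, without the other 6 arrays (adjusted p = 0.080). Below, a call that ended there, with all 18 rat arrays, with quantile normalization or with a trended and robust prior is named with its adjusted p in that fit. Calls gained in those fits are not named, and the fit with all 18 rat arrays called 1193 probe sets. Hmox1, Igfbp3 and Lpl, not called below, are among the genes that the paper lists as altered at 5 μg Se/g.

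The largest fall was that of Obp3, a lipocalin of the urinary protein family that male rat liver makes in large amounts. Single rats had 12.51, 12.46 and 12.82 at 0.24 μg Se/g and 7.99, 8.40 and 9.26 at 5 μg Se/g, and the gene fell by 4.04 on the log2 scale (± 0.43, adjusted p = 0.00099), or 16.5-fold. All 3 rats at 5 μg Se/g lay far below every control, and a second probe set fell by 4.01. Stac3, known as an adapter of the calcium channel of skeletal muscle, fell by 3.78 (± 0.47, adjusted p = 0.0020), from 11.79, 10.97 and 12.34 to 6.79, 8.27 and 8.70. Sult2a2, a sulfotransferase of steroids and bile acids, fell by 3.33 (± 0.58, adjusted p = 0.011), from 10.27, 10.02 and 11.09 to 5.73, 8.24 and 7.43. Ecm1, a secreted matrix protein of hepatocytes, fell by 2.32 (± 0.21, adjusted p = 0.00037), from 10.42, 10.66 and 10.71 to 7.997, 8.01 and 8.83. Ecm1 had the smallest SE of these falls, and replicate 3 at 5 μg Se/g was its highest rat in that diet. The other 11 named falls were Cyp3a9, Zfp37, Steap4, Vipr1, Colec11, Lrat, Gstp3, Elapor1, Reln, Fer1l5 and Shisa3, from −3.02 to −1.81. Steap4 is a metalloreductase, Vipr1 a receptor for vasoactive intestinal peptide and Gstp3 a glutathione transferase of the pi class. Gstp3 fell while Gstp1 rose, and probe sets of such near-identical family members can take up each other's RNA, so the member measured is uncertain. Among these falls Sult2a2, Zfp37, Steap4, Vipr1, Lrat, Gstp3, Reln and Shisa3 lost their call in 1 to 5 of the 6 fits with an array left out, with adjusted p up to 0.16. Sult2a2 was lost without replicate 3 at 0.24 μg Se/g alone (adjusted p = 0.057). Steap4, Vipr1, Lrat and Reln were lost with the 2 diets alone (0.051, 0.051, 0.092 and 0.086). The plot of the largest changes shows each rat.

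**Figure D2:**
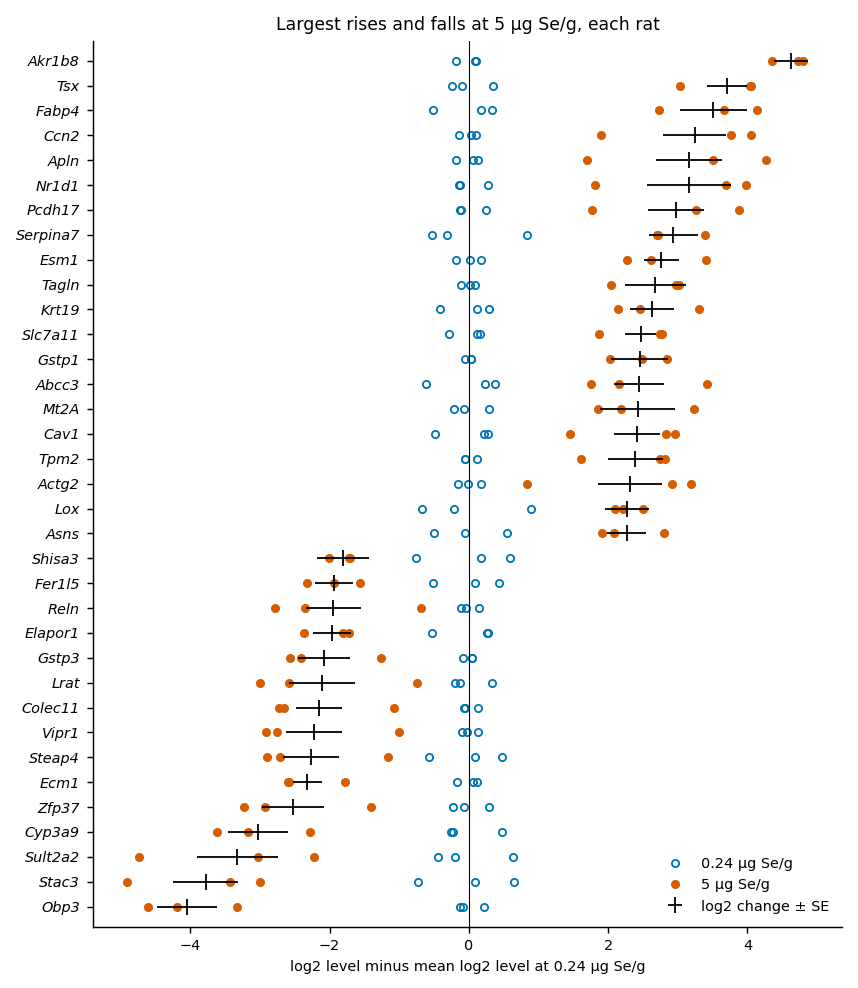
Log2 level of each rat minus the mean of the 0.24 μg Se/g rats (horizontal axis) for 35 called genes without overlap, the 20 that rose most and the 15 that fell most (vertical axis). Open blue circles are the 3 rats at 0.24 μg Se/g, filled orange circles the 3 rats at 5 μg Se/g, and black marks the log2 change with its SE. Akr1b8 stood highest at 4.63 and Obp3 lowest at −4.04.

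Nrf2 is the transcription factor that is freed from Keap1 when electrophiles or oxidants modify that sensor, and it drives genes of glutathione and thioredoxin supply, conjugation and export. Of 35 measured Nrf2 targets 10 were higher and 0 lower, and the list's median log2 change was 0.37. The 10 are Akr1b8, Slc7a11, Abcc4, Abcc3, Maff, Gstp1, Aldh1a1, Gsta3, Gstm3 and Srxn1. Slc7a11, which brings in cystine for glutathione synthesis, had log2 levels of 4.06, 4.45 and 4.50 at 0.24 μg Se/g and 6.21, 7.11 and 7.09 at 5 μg Se/g, a change of 2.46 ± 0.22 (adjusted p = 0.00037), with no overlap. Gstp1, a glutathione transferase of the pi class, went from 9.63, 9.55 and 9.63 to 12.45, 12.09 and 11.63, a change of 2.45 ± 0.41 (adjusted p = 0.0084). Gsta3 and Gstm3, of the alpha and mu classes, rose by 1.22 ± 0.23 and 2.23 ± 0.47. Of 19 measured glutathione transferases on a list of their own these 3 were called. Gstp3, which fell, is not on that list. The list's median was 0.06, and its counts in the 6 fits with an array left out were 1, 1, 3, 2, 1 and 1. The other 25 Nrf2 targets were not called. Gclc and Gclm, the subunits of the enzyme that limits glutathione synthesis, had changes of 0.33 ± 0.32 and 0.32 ± 0.19, and adjusted p was 0.70 and 0.47. Nqo1, a quinone reductase, lay at 11.14, 11.30 and 11.17 at 0.24 μg Se/g and 12.01, 11.63 and 11.35 at 5 μg Se/g, above the controls in all 3 rats, but its change of 0.46 ± 0.18 had an adjusted p of 0.26. Hmox1, which degrades heme, lay at 0.88 ± 0.25 with an adjusted p of 0.10. Txnrd1, Gsr, Me1 and Pgd, which supply reduced thioredoxin, reduced glutathione and NADPH, had adjusted p from 0.21 to 0.89. The count of called Nrf2 targets was 6, 6 and 12 without toxic replicates 1, 2 and 3 and 8, 7 and 6 without the 3 controls in turn. Gstm3 was lost in 5 of these fits, Gsta3, Aldh1a1 and Srxn1 in 4, and Slc7a11, Abcc3, Abcc4, Maff, Gstp1 and Akr1b8 in none. Srxn1 was also lost with the 2 diets alone (0.067) and with quantile normalization (0.058). Srxn1 has other probe sets at −0.21 and 0.57, and neither was called.

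Among aldo-keto reductases 3 of 15 measured were higher and 0 lower, with a median of 0.10. They were Akr1b8, Akr1b1, the aldose reductase, at 1.08 ± 0.21, and Akr1c15 at 0.99 ± 0.23. The list's counts in the 6 fits were 1, 1, 4, 1, 1 and 1. Both smaller calls were lost in all fits with 1 array left out other than the one without replicate 3 at 5 μg Se/g (adjusted p = 0.051 to 0.18), and a second Akr1b1 probe set lay at −0.05. Quantile normalization ended the call of Akr1c15 (0.068). Akr1c1 lay on the other side, with 9.77, 9.55 and 10.18 at 0.24 μg Se/g and 6.81, 8.01 and 9.76 at 5 μg Se/g, and replicate 3 at 5 μg Se/g overlapped the controls (adjusted p = 0.21). The export pumps Abcc3 and Abcc4 carry conjugated bile acids, glucuronides and cyclic nucleotides out of the basal side of hepatocytes. Abcc4 went from 6.62, 6.14 and 6.03 to 7.82, 7.33 and 7.73, a change of 1.36 ± 0.19 (adjusted p = 0.0036), and every rat at 5 μg Se/g exceeded every control. Abcc3 had 7.74, 7.59 and 6.75 at 0.24 μg Se/g and 10.78, 9.51 and 9.11 at 5 μg Se/g, a change of 2.44 ± 0.36 (adjusted p = 0.0046).

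Genes of the amino acid response are switched on by Atf4 when amino acids run short or the endoplasmic reticulum is stressed. Of 36 measured genes of this response and of the unfolded protein response 8 were higher and 0 lower, with a median of 0.38. Asns, the asparagine synthetase, had log2 levels of 6.63, 7.24 and 6.19 at 0.24 μg Se/g and 9.49, 8.604 and 8.77 at 5 μg Se/g, a change of 2.27 ± 0.28 (adjusted p = 0.0019). Slc7a1, a cationic amino acid transporter, rose from 5.89, 5.89 and 6.57 to 7.84, 8.002 and 8.28, a change of 1.92 ± 0.24 (adjusted p = 0.0022). The groups of both lay apart. Phgdh, which starts serine synthesis, rose by 1.92 ± 0.43, Ppp1r15a, which restarts translation, by 0.90 ± 0.17, and Mthfd2, of mitochondrial folate metabolism, by 0.82 ± 0.18. The hormone-like factor Gdf15 rose by 0.89 ± 0.19, from 6.68, 6.11 and 6.52 to 7.21, 7.10 and 7.69. Vldlr, a lipoprotein receptor, had 0.48 ± 0.11. Psat1 and Trib3, other targets of the amino acid response, lay above the controls in every rat but had adjusted p of 0.070 and 0.083. Atf4 itself lay at 0.195 and was not called. Among genes of the unfolded protein response, Pdia4, Sdf2l1, Dnajc3, Pdia6, Hsp90b1, Creld2, Calr and Manf lay between −0.29 and 0.19. Dnajb9 and Herpud1 lay higher, at 0.40 and 0.77, and none of these was called. Only Asns, Slc7a1 and Slc7a11 were called in all 6 fits with an array left out. The list's count was 3, 6 and 7 without toxic replicates 1, 2 and 3 and 5, 4 and 5 without the controls in turn. Phgdh, Gdf15, Mthfd2 and Vldlr were lost with the 2 diets alone (0.055, 0.065, 0.065 and 0.076). Slc7a1 has a further called probe set at 0.75 and one at 0.00.

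Of 24 measured immediate early and stress-induced transcription factors and phosphatases, 6 were higher and 1 was lower, with a median of 0.68. Klf6, a zinc finger factor induced by injury, rose from 7.67, 7.43 and 7.35 to 9.24, 9.06 and 8.49, a change of 1.45 ± 0.18 (adjusted p = 0.0021), and its 2 other probe sets were also called. Egr1, a factor that growth signals induce, rose from 8.90, 7.89 and 8.03 to 10.15, 9.89 and 10.14, a change of 1.79 ± 0.31 (adjusted p = 0.010). The zinc finger factors Klf4 and Klf9 rose by 1.65 ± 0.31 and 0.89 ± 0.20, the AP-1 member Junb by 0.83 ± 0.18 and the small Maf factor Maff by 0.90 ± 0.13. Fos and Jun, the first members of the AP-1 family, were not called, at −0.39 ± 0.19 and 0.94 ± 0.35. Dusp6, the phosphatase that dampens Erk signalling, fell by 1.24 (± 0.24, adjusted p = 0.019), and its 2 other probe sets lay at −1.12 and −0.67 without a call. Klf6 and Maff were called in all 6 fits with an array left out. Egr1 was lost without toxic replicate 1 (adjusted p = 0.051) and without control replicate 3 (0.052), and Klf4, Junb, Klf9 and Dusp6 in 4 or 5 of the fits. Klf4 was also lost with the 2 diets alone (0.052), Egr1 with all 18 rat arrays (0.091) and Junb with quantile normalization (0.052), and a second probe set of Klf9 lay at −0.10. The count was 2, 3, 8, 4, 4 and 3.

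Of 18 measured heat shock genes 3 were higher and 0 lower (median 0.13): Cryab, a small chaperone of muscle and stressed cells, at 1.90 ± 0.29, the inducible chaperone Hspa1a at 1.51 ± 0.29 and Rbm3, which cold induces, at 0.93 ± 0.21. Cryab rose from 7.25, 7.63 and 7.30 to 9.28, 9.64 and 8.94, with no overlap, and it alone was called in all 6 fits with an array left out, in which the count was 2, 1, 3, 2, 2 and 1. Rbm3 was lost with the 2 diets alone (0.054) and with quantile normalization (0.050). Among 18 measured p53 targets 3 were higher (Gdf15, Gadd45b and Mdm2) and 0 lower, with a median of 0.34. Mdm2, which degrades p53, rose by 0.58 ± 0.13, and Gadd45b, a stress sensor, by 0.71 ± 0.15. The call of Gadd45b, like that of Gdf15, ended with the 2 diets alone (0.082). The count was 0, 1, 3, 1, 0 and 1 in the fits with an array left out, although 10 of the 18 had an unadjusted p under 0.05 with all arrays. Mt2A, a metal-binding metallothionein, had 10.13, 9.62 and 9.77 at 0.24 μg Se/g and 11.69, 12.02 and 13.07 at 5 μg Se/g, a change of 2.42 ± 0.54 (adjusted p = 0.035), and replicate 3 at 5 μg Se/g was the highest. It was the 1 called gene among 21 of iron and metal handling, where the fits gave 0, 0, 2, 0, 0 and 0. Of 22 hypoxia genes Aldoa, a glycolytic aldolase, was called at 0.996 ± 0.24, and it lost its call in each fit with an array left out (adjusted p = 0.062 to 0.18) and with quantile normalization (0.064). The metal and hypoxia lists had 4.76% and 4.55% called, near the 4.09% of all genes.

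Collagens are the fibres of scar tissue and, as type IV, the sheet under vessels and epithelia. In toxic Se 9 of 27 measured collagen genes were higher and 0 lower, with a median of 0.38. Col4a1 and Col4a2, which form the main basement membrane network, had changes of 2.04 ± 0.18 and 1.65 ± 0.24. The 6 rats gave Col4a1 levels of 8.72, 8.88 and 8.32 at 0.24 μg Se/g and 10.71, 10.79 and 10.54 at 5 μg Se/g, and a second probe set of the gene was called at 1.79. Col1a1 and Col1a2 encode the chains of type I collagen, the main fibre of liver scars. Col1a1 had 7.41, 7.79 and 7.19 at 0.24 μg Se/g and 8.97, 9.23 and 9.03 at 5 μg Se/g, a change of 1.62 ± 0.22 (adjusted p = 0.0034), and a second probe set was called at 2.08. Col1a2 rose by 1.20 ± 0.25. Col8a2, of vessel walls, had 5.52, 5.93 and 5.62 at 0.24 μg Se/g and 7.78, 7.69 and 7.94 at 5 μg Se/g, a change of 2.11 ± 0.20 (adjusted p = 0.00046). None of these groups overlapped. Col3a1, the other large fibrillar collagen of liver, had 11.86, 12.32 and 11.78 at 0.24 μg Se/g and 11.66, 11.80 and 12.23 at 5 μg Se/g, with overlap and a change of −0.09 ± 0.19. Col5a2, Col12a1, Col6a3 and Col11a1 rose by 1.03 to 1.36, and the 2 other probe sets of Col12a1 lay at −0.19. The count was 7, 6 and 9 without toxic replicates 1, 2 and 3 and 6, 8 and 7 without the controls in turn. Col1a2 was lost in 4 of these fits and Col6a3 and Col11a1 in 5, and the other 6 were called in all. The same 3 were lost with the 2 diets alone (0.051, 0.065 and 0.123), and Col1a2 also with all 18 rat arrays (0.059). A second probe set of Col11a1 lay at −0.06. The mean log2 level of 13 markers of activated stellate cells and myofibroblasts, Col1a1 and Col1a2 among them, moved with these genes, from 6.64 to 7.08 at 0.24 to 7.76 to 7.89 at 5 μg Se/g, and its part in the changes of collagen, matrix and actin genes was not tested.

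Of 40 other matrix genes 7 were higher and 0 lower, with a median of 0.38. The laminins Lama4 and Lama5, of vessel basement membranes, had changes of 1.48 ± 0.14 and 1.69 ± 0.16, and Lamc1 had 0.86 ± 0.13. Lama5 levels were 5.89, 5.61 and 5.92 at 0.24 μg Se/g and 7.39, 7.91 and 7.18 at 5 μg Se/g, with all toxic rats above the controls, while its other probe sets, at lower levels, lay at 0.01 and −0.17. The heparan sulfate proteoglycan Hspg2 rose by 0.83 ± 0.12 and Nid2, which links laminin to collagen, by 0.61 ± 0.15. Tnc, a glycoprotein laid down in injured tissue, went from 4.11, 4.11 and 4.08 to 6.13, 6.48 and 5.09, a change of 1.801 ± 0.27 (adjusted p = 0.0049), and replicate 3 at 5 μg Se/g was its lowest toxic rat. Fbn1, of microfibrils, rose by 1.02 ± 0.17. Nid2 was called only without replicate 2 at 0.24 μg Se/g among the fits with an array left out, and the other 6 were called in all of them. Nid2 was also lost with the 2 diets alone (0.127), with quantile normalization (0.061) and with the trended and robust prior (0.056).

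Enzymes that build and trim the matrix were counted apart, and 7 of 31 were higher and 0 lower (median 0.21). Lox, which cross-links collagen, had 6.77, 7.87 and 6.31 at 0.24 μg Se/g and 9.49, 9.08 and 9.20 at 5 μg Se/g, a change of 2.27 ± 0.31 (adjusted p = 0.0034), and a second probe set was called at 2.37. Plod2, the lysyl hydroxylase for these cross-links, rose by 1.68 ± 0.19, Loxl1 by 1.05 ± 0.12 and the collagen chaperone Serpinh1 by 1.18 ± 0.23. Timp3, a protease inhibitor bound to matrix, had 8.20, 7.99 and 7.98 at 0.24 μg Se/g and 10.15, 10.28 and 9.24 at 5 μg Se/g, a change of 1.84 ± 0.21 (adjusted p = 0.0015), and 2 of its 3 other probe sets were called. The groups lay apart in Lox and Timp3. Plat, the tissue plasminogen activator, and the aggrecanase Adamts5 rose by 0.83 and 0.63. Mmp2, a gelatinase, and Timp1, the inhibitor that fibrotic liver secretes, had changes of 1.01 ± 0.25 and 0.90 ± 0.35 with adjusted p of 0.054 and 0.26. Serpinh1, Plat and Adamts5 lost their call in 3 or 4 of the 6 fits with an array left out. Plat was also lost with the 2 diets alone (0.073). The count was 6, 4 and 8 without toxic replicates 1, 2 and 3 and 4, 7 and 4 without the controls in turn.

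Tgf-beta and the coactivator Yap share target genes in matrix-making and stretched cells. Of 22 such genes 6 were higher and 0 lower, with a median of 0.37. Beside Ccn2 there was Ankrd1, a Yap target of muscle and stressed cells, with 5.16, 5.04 and 5.26 at 0.24 μg Se/g and 7.30, 7.57 and 6.75 at 5 μg Se/g, a change of 2.05 ± 0.23 (adjusted p = 0.0013). Its second probe set was called at 1.55. The rats of the 2 diets did not overlap in either gene. Tgif1, a repressor in this pathway, rose by 0.72 ± 0.12, the activin subunit Inhbb by 0.95 ± 0.16, Fstl1, which binds activins, by 0.77 ± 0.15 and the ligand Tgfb3 by 0.85 ± 0.19. Ccn1, a matricellular relative of Ccn2, had 1.31 ± 0.38 and an adjusted p of 0.11. Fstl1 was lost in 3 of the 6 fits with an array left out and Tgfb3 in 4, and the count was 4 to 6. Tgfb3 was also lost with the 2 diets alone (0.113) and with quantile normalization (0.055).

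Actin cytoskeleton genes had the most calls of any list, 15 of 40 higher and 0 lower, with a median of 0.55. Several belong to contractile cells. Tagln, an actin-binding protein of smooth muscle and myofibroblasts, had 7.97, 7.90 and 7.77 at 0.24 μg Se/g and 10.85, 10.89 and 9.92 at 5 μg Se/g, a change of 2.68 ± 0.43 (adjusted p = 0.0070). Tpm2, a tropomyosin, went from 6.69, 6.68 and 6.85 to 9.48, 9.56 and 8.35, a change of 2.39 ± 0.39 (adjusted p = 0.0078), though a weaker probe set lay at −0.21. The smooth muscle actins Actg2 and Acta2 rose by 2.31 ± 0.46 and 0.90 ± 0.21 and the smooth muscle myosin Myh11 by 1.29 ± 0.21. In Tagln, Tpm2, Actg2 and Myh11 replicate 3 at 5 μg Se/g was the lowest toxic rat but still above every control. Others serve most cells. Flna, which links actin to the membrane, had 8.12, 8.06 and 8.22 at 0.24 μg Se/g and 9.47, 9.63 and 9.27 at 5 μg Se/g, a change of 1.32 ± 0.14 (adjusted p = 0.00082), and the nonmuscle myosins Myh10 and Myh9 rose by 1.27 ± 0.12 and 0.64 ± 0.13. Tpm4, Pfn2, Msn, Cnn3, Pdlim7, Tpm1 and Tagln2 had changes of 0.57 to 1.17. The count was 7, 7 and 17 without toxic replicates 1, 2 and 3 and 7, 7 and 8 without the controls in turn. The 7 called in all fits were Myh10, Flna, Tpm4, Tagln, Tpm2, Myh11 and Pfn2. Acta2, whose change was 0.90 ± 0.21, was called in 1 of the 6, without replicate 3 at 5 μg Se/g. Beside Actg2, Msn and Tpm1 were lost with the 2 diets alone (0.054 and 0.051), and Acta2 and Tagln2 with quantile normalization (0.057 and 0.059).

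Of 37 adhesion genes 4 were higher and 0 lower (median 0.11). Mcam, an adhesion molecule of vessels and pericytes, had 6.403, 6.06 and 6.43 at 0.24 μg Se/g and 8.67, 8.62 and 7.80 at 5 μg Se/g, a change of 2.07 ± 0.25 (adjusted p = 0.0019), and its second probe set was called at 2.36. Ddr2, a collagen receptor of fibroblasts and stellate cells, had 4.66, 5.40 and 4.796 at 0.24 μg Se/g and 6.59, 6.94 and 7.31 at 5 μg Se/g, a change of 2.00 ± 0.22 (adjusted p = 0.0011), and 1 of its other probe sets was called at 1.07 while the other lay at 0.02. Neither gene's groups overlapped. Vcam1, which binds leukocytes, rose by 1.46 ± 0.29 and Itga8, an integrin of stellate and smooth muscle cells, by 0.61 ± 0.14. Vcam1 lost its call in 4 and Itga8 in 5 of the 6 fits with an array left out, and the count was 2, 2, 7, 2, 3 and 2. The call of Itga8 also ended with the 2 diets alone (0.085).

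Genes of vessel growth followed, with 10 of 32 higher and 1 lower and a median of 0.39. Apln, the peptide that tip cells of sprouts secrete, had 5.77, 5.85 and 5.53 at 0.24 μg Se/g and 9.23, 9.99 and 7.42 at 5 μg Se/g, a change of 3.16 ± 0.48 (adjusted p = 0.0051), though a weaker probe set at 0.91 was not called. The receptor kinases Tie1 and Tek rose by 1.25 ± 0.15 and 0.62 ± 0.12, and Angpt2, a Tek ligand of remodelling vessels, had 5.02, 5.31 and 5.04 at 0.24 μg Se/g and 6.802, 6.55 and 5.79 at 5 μg Se/g, a change of 1.26 ± 0.20 (adjusted p = 0.0070). Pdgfa, a growth factor for mesenchymal cells, went from 5.13, 5.39 and 5.46 to 7.45, 7.51 and 6.67, a change of 1.88 ± 0.26 (adjusted p = 0.0034). All 3 toxic rats lay above the controls in each. The ligands Vegfc and Vegfd and the receptors Flt1, Ephb4 and Plxnd1 rose by 0.53 to 0.72. Hey1, a Notch target that keeps vessels quiescent, fell by 0.88 (± 0.14, adjusted p = 0.0059), from 6.36, 6.42 and 6.58 to 5.71, 5.59 and 5.42. The count of called genes was 7, 7 and 12 without toxic replicates 1, 2 and 3 and 7, 7 and 6 without the controls in turn. Tie1, Pdgfa, Apln, Hey1, Plxnd1 and Angpt2 were called in all of these fits. Tek and Vegfd were lost with the 2 diets alone (0.071 and 0.064). The mean level of 13 endothelial markers was 8.54 to 8.86 in controls and 9.09 to 9.18 in toxic rats. Tie1, Tek and Kdr are on both lists, so this mean is not independent of the vessel genes. Its part in the vessel genes was not tested.

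The defining markers of hepatocytes were present in every rat. Of 9 measured, 0 were called and 0 had an unadjusted p under 0.05 in limma, Alb stood at 14.97, 15.002 and 14.89 at 0.24 μg Se/g and 14.96, 14.97 and 14.97 at 5 μg Se/g, and the mean level of the 9 was 13.6 to 13.7 in controls and 13.5 to 13.6 in toxic rats. Stellate cell markers split. Of 11 measured, Vim and Des were higher and Colec11, Reln and Lrat lower. Lrat makes the retinyl esters these cells store, and its levels were 8.95, 9.41 and 8.88 at 0.24 μg Se/g and 6.50, 6.08 and 8.34 at 5 μg Se/g, a change of −2.10 ± 0.47 (adjusted p = 0.037). Reln, a secreted glycoprotein, went from 10.12, 10.31 and 10.05 to 7.37, 7.81 and 9.47, a change of −1.95 ± 0.39 (adjusted p = 0.022), and Colec11, a collectin, from 11.11, 11.30 and 11.12 to 8.46, 8.53 and 10.10, a change of −2.15 ± 0.33 (adjusted p = 0.0053). In all 3, replicate 3 at 5 μg Se/g lay nearest to the controls without reaching them, and without it the changes were −2.79 in Lrat, −2.57 in Reln and −2.69 in Colec11. Lrat and Reln were called only in that fit among the 6 with an array left out, with adjusted p up to 0.16, and Colec11 in all 6. The count of the list was 3, 2, 5, 2, 3 and 3. The filament proteins Vim and Des rose by 1.58 ± 0.25 and 0.93 ± 0.16. Pdgfrb, Rgs5, Hgf, Hand2 and Ngfr were not called, nor was Dcn, which lay above the controls in every toxic rat (1.30 ± 0.36, adjusted p = 0.091). Of 13 markers of activated stellate cells and myofibroblasts 6 were higher (Spon1, Lox, Col1a1, Tagln, Col1a2 and Acta2) and 0 lower, with a median of 0.90. At 2 μg Se/g the mean level of the 13 was 6.85 to 7.18. Spon1, a matrix protein, had 4.62, 4.96 and 4.89 at 0.24 μg Se/g and 6.13, 6.53 and 6.75 at 5 μg Se/g, a change of 1.65 ± 0.15 (adjusted p = 0.00046). Pdgfrb, Fap, Postn and Col3a1 of the same list lay between −0.09 and 0.02.

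Endothelial markers also divided. Of 13 measured 5 were higher (Tie1, Pecam1, Vwf, Tek and Emcn) and 0 lower. Vwf, the clotting factor carrier of larger vessels, went from 7.18, 7.31 and 6.998 to 8.61, 8.59 and 7.61, a change of 1.11 ± 0.22 (adjusted p = 0.020), and Pecam1 from 7.88, 7.82 and 7.64 to 8.77, 8.96 and 8.39, a change of 0.92 ± 0.13 (adjusted p = 0.0036). Genes typical of the liver sinusoid were not called. Stab2, Lyve1 and Stab1, scavenger and hyaluronan receptors, had changes of −0.35, −0.14 and 0.14, and Kdr, the main Vegf receptor, had −0.30 ± 0.12 with an adjusted p of 0.27. The count of endothelial calls was 2, 2 and 6 without toxic replicates 1, 2 and 3 and 3, 3 and 2 without the controls in turn, and Tie1 and Pecam1 were in each. Like Tek, Vwf was lost with the 2 diets alone (0.079).

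Of 11 Kupffer cell and macrophage markers 1 was lower and 0 higher. Clec4f, the lectin that defines Kupffer cells in rodents, had 11.75, 11.31 and 11.73 at 0.24 μg Se/g and 9.38, 9.28 and 10.79 at 5 μg Se/g, a change of −1.78 ± 0.33 (adjusted p = 0.014), with no overlap. Without replicate 1 or 2 at 5 or replicate 1 or 3 at 0.24 μg Se/g it lost its call (adjusted p = 0.061 to 0.069), and also with the 2 diets alone (0.057). The other macrophage genes, Cd68, Cd163, Csf1r and the complement C1q chains among them, were not called, and the list's mean level was 9.62 to 9.96 in controls and 9.57 to 9.68 in toxic rats. Krt19, the keratin of bile ducts, had 6.19, 6.37 and 5.67 at 0.24 μg Se/g and 9.38, 8.53 and 8.22 at 5 μg Se/g, a change of 2.63 ± 0.32 (adjusted p = 0.0018), and Anxa4, which binds membranes in the presence of calcium, rose by 0.63 ± 0.11. The other 9 bile duct markers were not called, and the count was 1, 1, 4, 2, 2 and 1. Spp1 lay at 5.84, 5.74 and 5.65 at 0.24 μg Se/g and 5.94, 6.28 and 5.35 at 5 μg Se/g and the log2 change of Krt7, another duct keratin, was 0.17. Neutrophil (7), lymphocyte (11), red cell (5) and pancreatic (10) markers had 0 calls, and 0, 2, 2 and 0 of them an unadjusted p under 0.05. The mean of the red cell markers was 6.94 to 7.49 in controls and 7.56 to 7.98 in toxic rats. Hbb, a hemoglobin chain, lay at 12.51, 11.42 and 12.42 at 0.24 μg Se/g and 13.40, 13.50 and 12.95 at 5 μg Se/g, higher in all 3 toxic rats though not called (adjusted p = 0.27), and 1 red cell marker was called without toxic replicate 3. Of 6 fat cell markers Fabp4 was called and 4 had a negative change, with a median of −0.09. The mean of the 6, which includes Fabp4, was 6.03 to 6.11 in controls and 6.43 to 6.85 in toxic rats. Cfd, the complement protease adipsin that fat cells secrete, had 8.49, 8.04 and 8.52 at 0.24 μg Se/g and 9.34, 9.44 and 8.65 at 5 μg Se/g, higher in all 3 toxic rats though not called (0.79 ± 0.36, adjusted p = 0.33). Adipoq, Lep and Plin1, which define fat cells, were near the low end of the array at 4.51, 4.50 and 4.53 at 5 μg Se/g, and the lipase Lipe had a change of −0.08. The part of fat cell RNA in the level of Fabp4 was not tested.

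**Figure D3:**
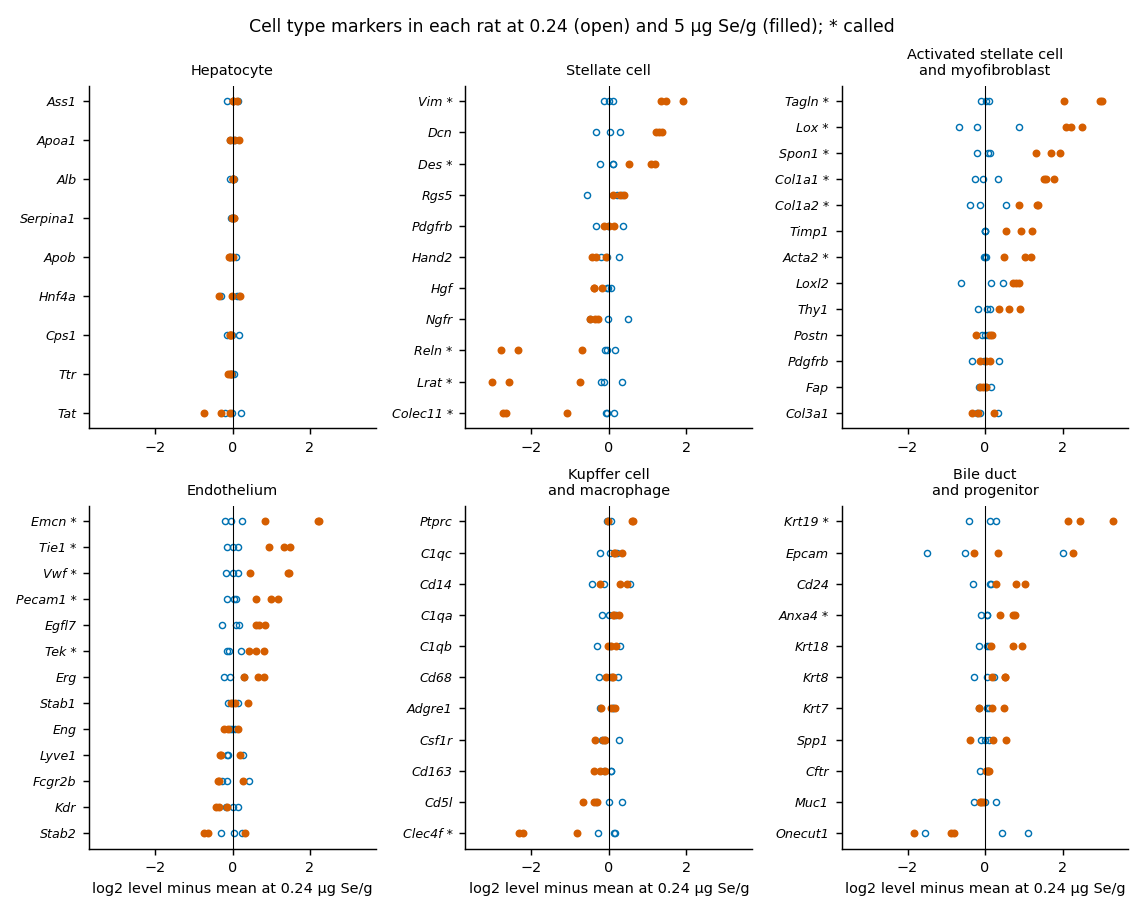
Log2 level of each rat minus the mean of the 0.24 μg Se/g rats (horizontal axes) for markers of 6 liver cell types (vertical axes). Open blue circles are the 3 rats at 0.24 and filled orange circles the 3 at 5 μg Se/g, and an asterisk marks a called gene. No hepatocyte marker was called, while Lrat, Reln and Colec11 lay below and Tagln, Lox and Emcn above the controls.

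Of 26 measured genes on a list of plasma proteins and apolipoproteins of hepatocytes 0 were called in limma and 1 had an unadjusted p under 0.05, with a median of −0.03. The secreted proteins Serpina7, Obp3 and Igfals, which were called at 2.94, −4.04 and −0.80, are not on that list. Acute phase genes had 1 higher and 1 lower of 27. Lbp, which binds bacterial lipopolysaccharide, had 10.34, 10.54 and 10.87 at 0.24 μg Se/g and 11.90, 12.27 and 11.46 at 5 μg Se/g, a change of 1.29 ± 0.23 (adjusted p = 0.012). Il33, an alarm cytokine that liver cells keep in the nucleus, fell by 1.32 (± 0.21, adjusted p = 0.0067), from 10.43, 10.09 and 10.51 to 8.65, 9.49 and 8.93, and a second probe set fell by 1.44. Both genes' groups lay apart. The count was 1, 1, 2, 1, 2 and 2. Lbp was lost without replicates 1 and 2 at 5 and replicate 1 at 0.24 μg Se/g (adjusted p = 0.055 to 0.059).

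Growth hormone is released in different patterns in male and female rats and sets liver genes that differ between the sexes. Of 30 measured genes of the growth hormone axis and its targets, male-biased and female-biased alike, 1 was higher and 3 were lower, with a median of −0.17, and 12 had an unadjusted p under 0.05, 10 of them lower. Beside Obp3 the lower genes were Sult1e1, the estrogen sulfotransferase, at −0.86 ± 0.19, and Igfals, which holds Igf1 in plasma, at −0.80 ± 0.19. Igfbp2, an Igf-binding protein, had 6.798, 6.73 and 7.204 at 0.24 μg Se/g and 8.61, 9.27 and 8.05 at 5 μg Se/g, a change of 1.73 ± 0.27 (adjusted p = 0.0064). Igf1 itself lay at −0.22 ± 0.10 (adjusted p = 0.33), Igfbp3 at −1.16 ± 0.28 (adjusted p = 0.053) and Igfbp1 at 2.21 ± 0.74 (adjusted p = 0.17). The male P450 Cyp2c11 had 13.98, 14.05 and 13.95 at 0.24 μg Se/g and 13.88, 13.87 and 13.96 at 5 μg Se/g and was not called. Obp3 and Igfbp2 were called in all 6 fits with an array left out, Sult1e1 in 1 and Igfals in 0, and the count was 2, 2, 5, 2, 2 and 3. Sult1e1 was lost with the 2 diets alone (0.114), and Igfals with quantile normalization (0.055) and with the trended and robust prior (0.051).

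Of 43 cytochrome P450 genes 1 was higher and 3 were lower (median −0.16). Cyp26a1, which breaks down retinoic acid, had 6.57, 6.13 and 6.22 at 0.24 μg Se/g and 8.24, 8.18 and 8.03 at 5 μg Se/g, a change of 1.84 ± 0.18 (adjusted p = 0.00046). Cyp1a2, a major enzyme for caffeine and aromatic amines, fell by 1.17 (± 0.19, adjusted p = 0.0078), from 12.72, 13.08 and 13.29 to 11.37, 12.11 and 12.10. Cyp3a9, which acts on steroids and drugs, fell by 3.02 (± 0.43, adjusted p = 0.0038), from 8.98, 8.95 and 9.67 to 6.03, 5.59 and 6.91. These groups lay apart, and the 3 genes were called in all 6 fits with an array left out. Cyp2d4 fell by 0.67 ± 0.14 and was lost in 4 of the fits. Cyp7a1, the rate-limiting enzyme of bile acid synthesis, had 7.49, 8.59 and 7.26 at 0.24 μg Se/g and 10.34, 9.89 and 9.54 at 5 μg Se/g, a change of 2.14 ± 0.56 with an adjusted p of 0.070. Of 24 bile acid genes the pumps Abcc3 and Abcc4 were called and 22 were not.

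In lipid synthesis 1 of 21 cholesterol genes and 1 of 22 fatty acid genes were called, both lower, with medians of −0.01 and −0.14. These shares, 4.76% and 4.55%, are near the 4.09% called among all genes. Insig2, which holds back sterol synthesis, fell by 0.60 (± 0.11, adjusted p = 0.012), and the elongase Elovl5 by 0.74 (± 0.16, adjusted p = 0.035). Of 29 genes of fatty acid uptake, oxidation and ketone use, Fabp4 and Oxct1 were higher and Ppard lower. Oxct1, the ketone-using enzyme that hepatocytes normally lack, had 6.25, 6.25 and 6.18 at 0.24 μg Se/g and 7.22, 7.33 and 7.36 at 5 μg Se/g, a change of 1.07 ± 0.10 (adjusted p = 0.00037), with no overlap. Lpl, which takes up lipoprotein fat, had 6.58, 8.11 and 7.10 at 0.24 μg Se/g and 8.52, 9.26 and 9.98 at 5 μg Se/g, and its adjusted p was 0.054. Insig2, Elovl5 and Ppard lost their call in 3, 5 and 5 of the 6 fits with an array left out, and Oxct1 and Fabp4 in none. Elovl5 and Ppard were lost with the 2 diets alone too (0.056 and 0.085). The counts were 0, 0, 2, 1, 0 and 1 for cholesterol and 0, 0, 1, 0, 0 and 0 for fatty acid synthesis.

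Among 27 genes of glucose and insulin 3 were higher and 1 was lower, with a median of 0.14. Grb10, an adapter that dampens insulin receptor signalling, had 5.58, 5.69 and 5.36 at 0.24 μg Se/g and 7.05, 7.12 and 6.94 at 5 μg Se/g, a change of 1.49 ± 0.12 (adjusted p = 0.00021), with no overlap, though its 2 weaker probe sets lay at 0.12 and 0.25. Irs3, an insulin receptor substrate of rodents, fell by 1.58 (± 0.26, adjusted p = 0.0082), from 7.77, 7.49 and 7.19 to 5.86, 6.19 and 5.66. Hk1, the hexokinase of tissues other than hepatocytes, rose by 0.70 ± 0.13 and the mitochondrial Pck2 by 0.69 ± 0.14. The study itself picked 6 measured genes of glucose, insulin and glycoproteins on these samples, so their direction is not independent evidence, and 5 of them were higher. Star, which carries cholesterol into mitochondria, had 5.72, 5.64 and 5.52 at 0.24 μg Se/g and 6.90, 7.27 and 7.65 at 5 μg Se/g, a change of 1.65 ± 0.16 (adjusted p = 0.00046), and a second probe set was called at 2.34. Sort1, Soat1 and Chsy1 rose by 0.61, 0.57 and 0.51, and St3gal2 lay at −0.01. With any probe set of a gene counted, all 6 had a call, so another probe set of St3gal2 was called. Grb10, Irs3 and Star were called in all 6 fits with an array left out, Hk1 in 2, Pck2, Sort1 and Soat1 in 1 and Chsy1 in 0. Pck2 was lost with the 2 diets alone (0.066) and Chsy1 with the trended and robust prior (0.053), and a second probe set of Hk1 lay at −0.05. The counts were 2, 3, 3, 2, 2 and 3 for glucose and insulin and 2, 2, 4, 2, 2 and 2 for the study's genes.

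Clock genes had 4 higher and 1 lower of 18, with a median of −0.04. The nuclear receptors Nr1d1 and Nr1d2, repressors in the clock, rose by 3.16 ± 0.60 and 1.96 ± 0.33. Nr1d1 levels were 4.83, 4.84 and 5.26 at 0.24 μg Se/g and 8.95, 6.78 and 8.66 at 5 μg Se/g, and replicate 2 was the lowest toxic rat. Per3 rose by 1.75 ± 0.33, though a second probe set lay at −0.20, and the repressor Bhlhe41, from 4.12, 4.26 and 3.79 to 5.44, 5.37 and 4.98, by 1.21 ± 0.14. The output factor Hlf fell by 0.50 (± 0.11, adjusted p = 0.029). Dbp, another output factor, spread widely at 6.23, 5.62 and 6.20 at 0.24 μg Se/g and 9.86, 6.39 and 7.30 at 5 μg Se/g and was not called (adjusted p = 0.19). Cry1 and Bmal1 lay lower in every toxic rat, with changes of −1.77 ± 0.46 and −0.80 ± 0.30 and adjusted p of 0.071 and 0.23. Clock genes vary with the hour of the day, and the hour at which each rat was killed is not given in the sources used here, so hour and diet cannot be told apart. The count was 3, 4 and 7 without toxic replicates 1, 2 and 3 and 2, 2 and 3 without the controls in turn, and Bhlhe41 and Nr1d2 were called in each. Per3 was lost with the 2 diets alone (0.068) and Hlf with the trended and robust prior (0.052).

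Of 22 measured selenoproteins 2 were higher and 0 lower, with a median of 0.03. Selenom, a redox protein of the endoplasmic reticulum, had 7.03, 6.85 and 7.08 at 0.24 μg Se/g and 8.53, 8.61 and 8.15 at 5 μg Se/g, a change of 1.44 ± 0.28 (adjusted p = 0.020). Selenon, of the same compartment, rose by 0.57 ± 0.12, though a second probe set lay at 0.09. Each was called in 1 of the 6 fits with an array left out (adjusted p otherwise 0.060 to 0.093), and the count was 0, 0, 1, 0, 1 and 0. Selenon was also lost with the 2 diets alone (0.071). Gpx2, the glutathione peroxidase of the gut and a known Nrf2 target, had 5.90, 5.08 and 4.79 at 0.24 μg Se/g and 10.002, 6.599 and 7.95 at 5 μg Se/g, above the controls in every toxic rat, and its change of 2.93 ± 0.94 had an adjusted p of 0.15. Selenow lay at 1.25 ± 0.42 (adjusted p = 0.17) and Gpx3 at 0.59 ± 0.20 (adjusted p = 0.19). Txnrd1, the cytosolic thioredoxin reductase and also on the Nrf2 list, had 10.59, 10.76 and 10.85 at 0.24 μg Se/g and 11.76, 11.03 and 11.14 at 5 μg Se/g, above the controls in every toxic rat, with a change of 0.58 ± 0.21 and an adjusted p of 0.21. Gpx1, the main peroxidase of liver, stood at 14.13, 14.05 and 14.19 at 0.24 μg Se/g and 13.95, 14.09 and 13.88 at 5 μg Se/g, a change of −0.15 ± 0.12 with an adjusted p of 0.63. The changes of Gpx4, Selenop, Selenoh, Selenok, Txnrd2 and Dio1 were 0.03, 0.04, 0.20, 0.00, −0.15 and 0.51. Selenof, Selenos, Selenot, Selenoi, Msrb1, Sephs2, Txnrd3, Dio2 and Dio3 lay between −0.34 and 0.13.

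Of 16 genes that carry, recycle, methylate or insert Se, 1 was called (6.25%, against 4.09% of all genes). Cbs, which turns homocysteine into cystathionine in the path to cysteine, had 12.05, 12.15 and 12.12 at 0.24 μg Se/g and 11.13, 11.32 and 11.44 at 5 μg Se/g and fell by 0.81 (± 0.12, adjusted p = 0.0041), called in all 6 fits with an array left out. Inmt, a methyltransferase that also methylates Se compounds, had 10.84, 10.12 and 12.12 at 0.24 μg Se/g and 7.23, 8.94 and 10.77 at 5 μg Se/g, with overlap and an adjusted p of 0.19. Cbs was also the only call among 23 genes of methionine and one-carbon metabolism (4.35%), and without toxic replicate 3 both lists had 2 calls.

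Several functions had 0 calls in limma, against 4.09% of all genes. They were the cell cycle (38 measured, 2 with an unadjusted p under 0.05), respiratory chain subunits (30, 1), proteasome subunits (30, 1), the urea cycle and amino acid breakdown (29, 7) and UDP-glucuronosyltransferases with glucuronate supply (8, 3), against 17.1% of all genes at that level. Their medians lay between −0.14 and 0.10. Among the urea cycle and amino acid genes 6 of the 7 were lower, and the smallest adjusted p was 0.068, for the histidine ammonia-lyase Hal. Without toxic replicate 3 or control replicate 2, 1 gene of this list was called. The plot of the lists shows all members.

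**Figure D4:**
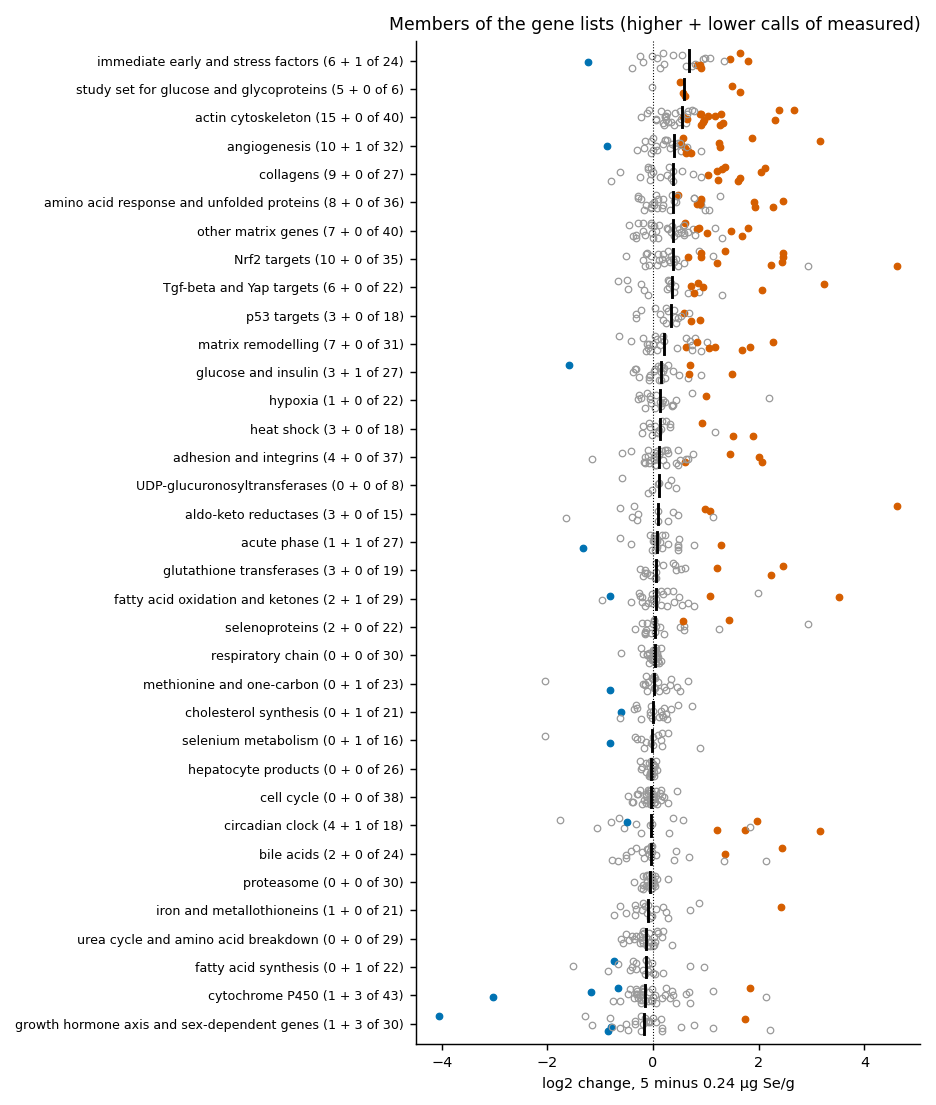
Log2 change at 5 against 0.24 μg Se/g (horizontal axis) of every measured member of 35 gene lists (vertical axis), ordered by median. Orange points were called higher, blue points lower and open grey points neither, a black bar is the list's median and the dotted line the median of all genes. Numbers in brackets are higher plus lower calls of measured members, 15 + 0 of 40 for the actin cytoskeleton.

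Against 2 μg Se/g, the next lower diet, 1037 probe sets (3.34%) and 643 genes (4.52%) were called at 5 μg Se/g. Both comparisons use the same 3 toxic arrays, so they are not independent. The array of replicate 1 at 2 μg Se/g stood apart from its group (r of 0.972 with its less alike fellow), and the probe set count was 238 without it, 146 without replicate 2 and 8262 without replicate 3 of that diet. Without replicates 1, 2 and 3 at 5 μg Se/g it was 149, 198 and 1083. In some genes the mean at 2 μg Se/g lay near that at 0.24 μg Se/g, a step that was not tested here. Star lay at 5.64 at 2 μg Se/g, next to its control level of 5.63, and its change from 2 to 5 μg Se/g was 1.64 ± 0.16 (adjusted p = 0.0010). Obp3 was at 13.23 at 2 μg Se/g and changed by −4.68 ± 0.43 (adjusted p = 0.0010). Slc7a11 was at 4.57 and changed by 2.23 ± 0.22 (adjusted p = 0.0010), and Esm1 was at 4.03 and changed by 2.93 ± 0.25 (adjusted p = 0.00069). Others had a mean at 2 μg Se/g on the way. Akr1b8 had 7.13 there, between 5.45 and 10.08, and its change from 2 to 5 μg Se/g was 2.95 ± 0.25 (adjusted p = 0.00069). Col4a1 had 9.47 and changed by 1.21 ± 0.18 (adjusted p = 0.0086), and Grb10 had 6.23 and changed by 0.81 ± 0.12 (adjusted p = 0.0089). Oxct1 had 6.94 and a change from there of 0.36 ± 0.10 (adjusted p = 0.065), which did not pass. Abcc3 was also high in Se deficiency, at 9.50 against 9.80 at 5 μg Se/g, a difference that was not tested. In the diets of 0.08 and of 0.8 μg, from an earlier study processed apart, Star lay at 5.58 and 5.58 and Akr1b8 at 6.17 and 6.33.

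**Figure D5:**
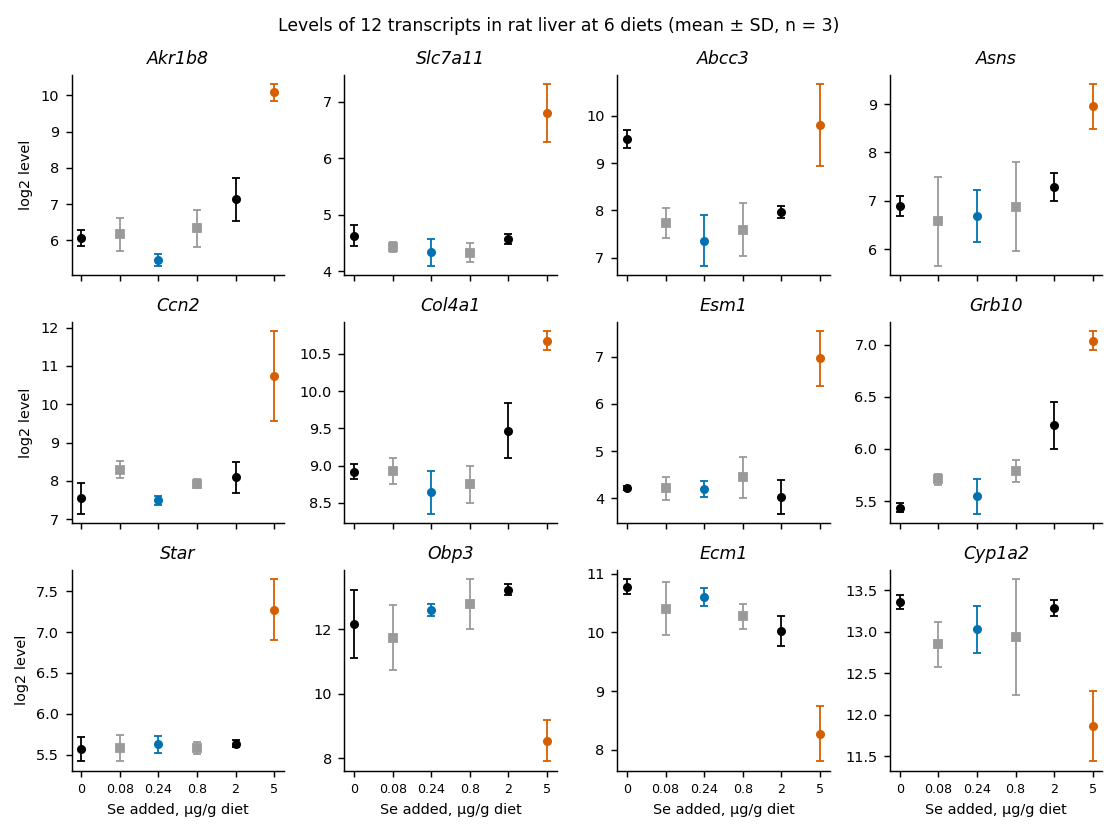
Log2 level (vertical axes) of 12 transcripts in rat liver by Se added to the diet (horizontal axes, 0 to 5 μg/g, evenly spaced). Points are means and bars SD of 3 rats, circles are rat study 2 with 0.24 in blue and 5 μg Se/g in orange, and grey squares are rat study 1. Obp3 fell from 12.60 at 0.24 to 8.55 at 5 μg Se/g.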

How the data were processed

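Liver RNA of single rats was hybridised to Affymetrix whole-genome rat arrays. The deposited values are log2 levels per probe set, background-corrected and normalized between arrays by the authors. The submitters' processing notes name GCRMA without a version whereas RMA, applied to each study apart, stands in the methods of the paper, so the exact method is uncertain. With all 18 rat arrays in the fit 1193 probe sets were called, the count that the paper reports, but the count alone does not name the method. Fold changes depend on it, most of all for dim probe sets. Values were tested with limma 3.58.1 in R 4.3.3, with 1 coefficient for each diet over 12 arrays (Se deficient, 0.24, 2 and 5 μg Se/g) and Benjamini-Hochberg adjustment over 31042 probe sets at 0.05, after 57 array controls were left out. The platform annotation gave 14217 genes, each read from its probe set with the highest mean. No scan values were used here, so precision rests on 3 arrays per diet. Named genes were those called without overlap that rose most (20) or fell most (15), up to 6 members per list with the smallest p, every selenoprotein and further list members with their values. Members and lists were chosen with earlier results of these data known. Alternatives changed the arrays in the fit, the variance model, array weights, a filter on low values, the normalization, a block on replicate number and the probe set that stands for a gene. The comparison with 2 μg Se/g and the list counts with an array left out were added after the data were seen. The code was tested on simulated data. Promoter sequences of the rat were not used here.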

Additional observations from a re-analysis of the deposited data

How the results depend on the processing

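The 3 arrays of each diet limit what could be called. Probe sets called higher and lower numbered 686 and 189, and ran from 299 to 811 and from 52 to 254 as each array of the 2 diets was left out. Array weights gave 1985 and 1199, of which 62.34% were higher against 78.4% without weights, and the fit of the weights stopped before it reached its tolerance. Without replicate 1 at 2 μg Se/g 1196 probe sets were called, 306 of them lower, and all 875 were among them. That array is in neither diet compared, but it enters the error of the fit. Other settings kept both counts within 1.5 times, although only 584 of the 875 probe sets were also called with the 2 diets alone in the fit. At 5 against 2 μg Se/g, 1037 probe sets were called, but 9 with the 2 diets alone, 2394 with all 18 rat arrays, 238 without replicate 1 at 2 μg Se/g, 14962 with array weights and 146 to 8262 as each array was left out. The cause was not tested. The labels number the rats 1 to 3 in each diet, and rats with the same number correlated in their deviations at r = 0.125, 0.0323 and 0.0216. The first value exceeds the limit of 0.1 set for pairing, so whether the numbers pair the rats is not settled. The main fit treats them as unpaired. With the replicate block 623 probe sets were higher, 160 lower and 777 called against 2 μg Se/g, and every rat but replicate 3 at 0.24 μg Se/g correlated best with the rat of its own number. Of 149 called genes named in the text, 73 were called in every refit of their probe set, 31 were lost only without an array, 32 with the 2 diets alone, 22 with the block, 10 with quantile normalization, 4 with trend and robust and 2 with all 18 arrays, and 0 changed direction in these refits. The filter on low values tested 175 of 221 named genes. Other probe sets lay across 0 in 10 called genes (Akr1b1, Col11a1, Col12a1, Hk1, Klf9, Lama5, Per3, Slc7a1, Srxn1 and Tpm2), 0 of these probe sets being called. With any probe set of a gene counted, 644 genes were called in place of 581, and the count rose in many lists. Matrix remodelling then had 9 calls, activated stellate cells and myofibroblasts 8, and glucose and insulin 6. The hypoxia and metal lists had 2 calls each and the proteasome 1.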
